A study of Rattus norvegicus with 2 samples.

Results

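The cytosolic ribosomal protein genes are the genes for the protein parts of the ribosome that works in the cytoplasm. They were taken by symbol, as every gene named Rpl or Rps with a number, Rplp with a number, or Rpsa, leaving out pseudogenes (-ps) and the ribosomal S6 kinases. This name rule found 103 of the 42172 genes counted in rat lung cells. Of these, 76 were canonical ribosomal proteins, 31 of the small and 45 of the large subunit, and 26 were paralogs or like genes. The remaining one, Rps19bp1, encodes a protein that binds a ribosomal protein and is not itself part of the ribosome. Among the canonical genes, 3 stood in the files under other symbols (Rps19l2 for Rps19, Rps9l1 for Rps9 and Rpl35al1 for Rpl35a). Fau, whose product is cut into a ribosomal protein and a ubiquitin-like part, lies outside the name rule and is given with the related genes. Rpl37a was not matched by symbol and was not analysed here.

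A ribosome is built from ribosomal RNA and a fixed set of proteins, and each cytosolic ribosome needs about equal numbers of nearly all of them. Their mRNAs are among the most abundant of the cell. Most begin with a run of pyrimidines, the 5′ terminal oligopyrimidine (TOP) tract, through which the mTORC1 pathway and the binding protein Larp1 control their translation and stability. Lymphocytes, which are small cells with little cytoplasm, are known for a high share of these transcripts in single-cell data.

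Lungs of Rattus norvegicus kept under specific-pathogen-free conditions were dissociated to single cells, red cells were lysed and dead cells were removed in both groups, and 3′ RNA libraries were made with droplets. One group was labelled Control and the other Explosion, for rats exposed to a gas explosion. Each group had 1 library, and the labels give no strain, age, genotype, time after exposure or number of animals. Values are counts of unique molecular identifiers (UMIs), each standing for 1 captured RNA molecule. A share is a gene's UMIs over all UMIs of the same class and library, and a level in CPM is that share counted per 1000000 UMIs.

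The control library kept 19231 cells with a median of 4677 UMIs, and the explosion library kept 11845 cells with a median of 532 UMIs. The 2 libraries shared 85 deposited cell barcodes, 82 of them among the cells kept; without these the log2 ratio of the ribosomal protein share over all cells was -0.90, against -0.89 with them. With 1 library a group no test was run, and the intervals in parentheses are 95% intervals for counting error only. Cell classes were rebuilt from marker genes and are called by the type they resemble. In 7 classes, each with at least 200 cells in both libraries, the libraries could be compared. Different clusters held most of a class in the 2 libraries: macrophage-like cells lay mainly in clusters 0 and 2 in the control and in clusters 9 and 13 in the explosion library, T-like cells in clusters 5 and 4, and monocyte-like cells in clusters 8 and 1. Mesothelial-like cells lay mainly in clusters 6 and 11, B-like cells in clusters 12 and 15, NK-like cells in clusters 19 and 21, and secretory-like cells in clusters 3 and 16. RNA quality also differed: mitochondrial ribosomal RNA made 0.690% of control and 3.54% of explosion UMIs, and the ribosomal RNA precursor Rn45s made 0.0091% and 0.303%.

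The sequence around the transcription start is shown for 6 genes, since the TOP tract is the feature these genes share by function. Rps13, Rps15a, Rps28, Rps6 and Rpl4 come from the ends of the range of ratios found here, and Rpl41 is shown as the gene with the most control UMIs. RefSeq promoters of the rat build GRCr8 were matched for 62 entries of 61 canonical genes. Each line gives 30 bases, 5′ to 3′, on the gene's strand, with the longest run of C or T that touches the 20 bases on either side of the annotated start in capitals.
Rps13: tcctacctcgTTCTCTCTTTgcttccagac
Rps15a: aaccccggcgTTTTCTTTCCacagtcacca
Rps28: tgctcacgtgaCTCCTCTCCgctagatctc
Rps6: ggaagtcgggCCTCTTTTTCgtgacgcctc
Rpl4: gtgataagTTCTTCCTTTTCCTgtgggagc
Rpl41: aacagaaggggcggCTCggaagtgacgaca
The windows lie at chr1:180009640-180009669 (minus strand) for Rps13, chr1:181860275-181860304 (minus) for Rps15a and chr7:15311311-15311340 (minus) for Rps28. They lie at chr5:106420548-106420577 (minus) for Rps6, chr8:73566458-73566487 (plus) for Rpl4 and chr7:1563492-1563521 (minus) for Rpl41. The run was 10 bases long in Rps13, Rps15a and Rps6, 9 in Rps28 and 14 in Rpl4, while Rpl41 had no run longer than 3 bases there. Counted from the annotated start, the first base of the run was at -27 in Rps6, -11 in Rpl4 and -10 in Rps15a. It was at 2 in Rps13 and at 5 in Rps28. The runs of Rps6 and Rps15a thus lay wholly before the annotated start. A run in capitals is near the start and was not shown to be the TOP tract of the mRNA.

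A run of at least 8 pyrimidines near the start was found in 50 of the 62 canonical entries (80.6%) and in 21.0% of all 33469 promoters of the same length. The other motifs were searched on both strands over the 300 bases from 250 before to 50 after the start; CTTTCC can overlap the pyrimidine run. CGGAAG, the core of an ETS-family site, was in 54.8% of the canonical entries and 16.6% of all promoters. GGGCGG, a GC box, was in 59.7% and 33.1%, CTTTCC in 48.4% and 26.4%, and TATAAA in 9.68% and 14.2%. The pyrimidine run was present at both ends of the range described below: of the 8 genes with the lowest ratio between libraries 6 had a promoter entry, and of the 8 with the highest 6 had one, and all of these held a run of at least 8 bases.

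Ribosomal protein transcripts made up a smaller share of the RNA in the explosion library than in the control library, in every class that could be compared. Over all cells the share was 10.6% in the control and 5.71% in the explosion library, 1.86-fold lower (1.85 to 1.86). Values over all cells, here and below, also carry the mix of classes, which differed between the libraries. Macrophage-like cells were 9036 of 19231 control and 2160 of 11845 explosion cells, and monocyte-like cells were 1115 and 3772. The part of this mix was not tested. T-like cells, the class with the highest share in both libraries, had 32.0% in the control and 11.9% in the explosion library, 2.69-fold lower (2.67 to 2.71). The distributions over single cells were apart as well: the quartiles of T-like cells were 26.5% and 37.0% in the control and 9.10% and 14.4% in the explosion library.

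**Figure D1:**
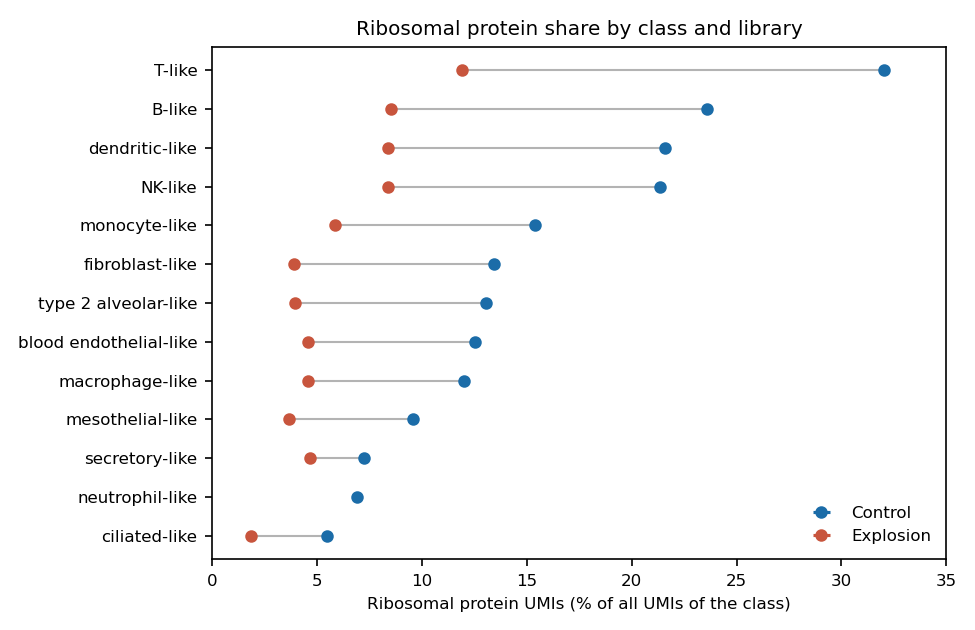
Share of all UMIs of a class that came from ribosomal protein genes (horizontal axis, percent), for classes with at least 20 cells in a library; points are the libraries (blue control, red explosion), and 95% counting intervals are mostly narrower than the points. In all 12 classes with both points the explosion library lies to the left, and T-like cells are the highest in both.

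Among the 7 compared classes, the other lymphocyte classes had the next highest shares. B-like cells had 23.6% in the control and 8.52% in the explosion library, 2.77-fold lower (2.73 to 2.80). NK-like cells had 21.4% and 8.38%, 2.55-fold lower (2.52 to 2.58). Myeloid classes started lower and differed by a similar fold. Monocyte-like cells had 15.4% and 5.88%, 2.62-fold lower (2.60 to 2.64). Macrophage-like cells, the largest class of the control library, had 12.0% and 4.58%, 2.62-fold lower (2.60 to 2.64). Mesothelial-like cells had 9.56% and 3.69%, 2.59-fold lower (2.56 to 2.62).

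Secretory-like airway cells had the smallest fold of the 7 classes. Their share was 7.25% in the control and 4.66% in the explosion library, 1.56-fold lower (1.54 to 1.57). In these cells 1 transcript, the club cell secretoglobin Scgb1a1, took 57.6% of control and 38.5% of explosion UMIs. With Scgb1a1, mitochondrial ribosomal RNAs and Rn45s taken out of the total, the log2 ratio of secretory-like cells was -1.12, against -0.64 with them. The same step left the other 6 classes between -1.46 and -1.34.

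Classes too small for the comparison gave levels only. Ciliated-like cells had the lowest share in both libraries, 5.46% in the control and 1.87% in the explosion library. Fibroblast-like cells had 13.5% and 3.91%, and type 2 alveolar-like cells had 13.1% and 3.97%. Blood endothelial-like cells had 12.5% and 4.55%, and dendritic-like cells, with 42 control cells, had 21.6% and 8.40%. The order of the levels was similar in both libraries at the top: T, B, dendritic and NK. The dendritic-like and NK-like intervals overlapped in both libraries, and those of B-like and dendritic-like cells overlapped in the explosion library. Lower down, secretory-like cells were 11th of 13 classes in the control and 6th of 12 in the explosion library. Neutrophil-like cells had 6.89% in the control and only 3 cells in the explosion library, and the unnamed clusters 25, 28 and 29 had 12.1%, 11.3% and 12.1% in the control.

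The libraries differed in depth, so cells of like depth were set side by side. The lowest deposited barcode had 500 UMIs in the control and 231 in the explosion library. Under 500 UMIs lay 5580 of the 11845 explosion cells, where the control had no cells to set beside them. Among these were 2823 of 3772 monocyte-like, 1133 of 1619 T-like and 701 of 774 B-like explosion cells. Among cells of 1000 to 2000 UMIs the share in macrophage-like cells was 11.1% in the control and 4.56% in the explosion library. In monocyte-like cells at that depth it was 14.2% and 9.49%. In secretory-like cells it was 7.77% and 4.73%. The explosion library was lower in each of these pairs. In T-like cells of 500 to 1000 UMIs the share was 25.1% and 12.5%, and in B-like cells of that depth it was 20.8% and 9.64%. The control share was higher in deeper cells of both lymphocyte classes, reaching 33.7% in T-like cells of 2000 to 5000 UMIs. Over cells of 500 to 1500 UMIs the log2 ratio lay between -1.24 in mesothelial-like and -0.49 in secretory-like cells, so every class stayed below 0, by less than over all depths.

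**Figure D2:**
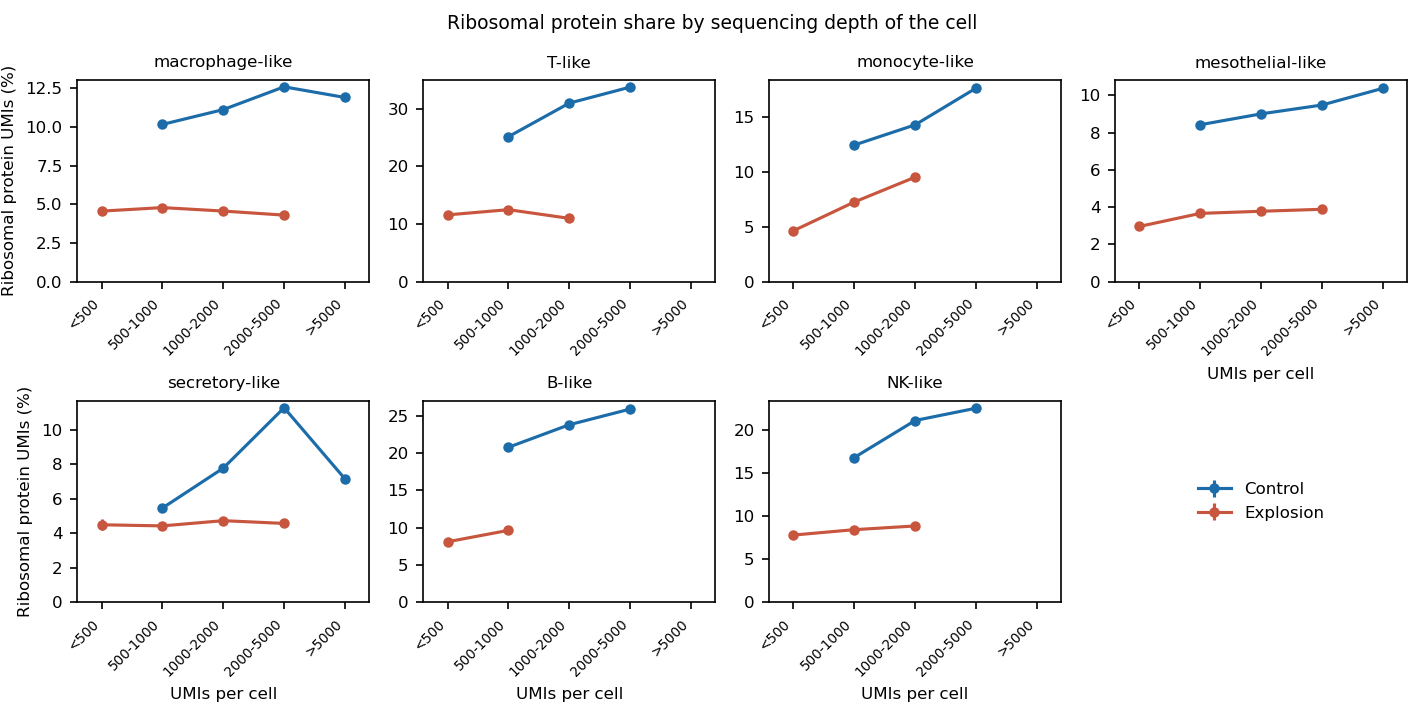
Ribosomal protein share (percent of UMIs) by the UMIs of the cell, for 7 classes; points are bins with at least 20 cells, blue control and red explosion, with 95% counting intervals. Where both libraries have a point in a bin, the explosion point is lower, by the least in secretory-like cells of 500 to 1000 UMIs (5.46% and 4.43%).

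The shares were also compared within ranges of the mitochondrial ribosomal RNA share of a cell. Macrophage-like cells with at least 5% mitochondrial ribosomal RNA had 5.99% ribosomal protein UMIs in the control and 4.18% in the explosion library. With 1% to 2% they had 12.3% and 4.58%. In macrophage-like cells the libraries were thus closer in the upper range. The same held in secretory-like cells, with 4.31% and 3.67% in the upper range, against 6.34% and 4.84% with 1% to 2%. Over cells of all classes the shares with at least 5% were 6.80% and 6.41%, against 14.4% and 5.07% with 1% to 2%. Among cells of all classes with at least 5%, the median cell had 4.89% in the control and 5.23% in the explosion library. These cells differed in class. Of the 3057 explosion cells, 1174 were monocyte-like and 753 T-like. Of the 687 control cells, 162 were macrophage-like, 141 mesothelial-like and 135 secretory-like. In mesothelial-like cells with at least 5% the shares were 7.03% and 3.11%, against 8.49% and 3.75% with 2% to 5%. In B-like cells they were 17.8%, over 37 control cells, and 8.06%, against 22.4% and 8.84%. In T-like cells with at least 5% they were 21.0%, over 21 control cells, and 12.2%. Among explosion T-like cells the share was 11.8% with 2% to 5% and 8.87%, over 31 cells, with 1% to 2%. The part of RNA quality in the difference was not tested.

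Of the 103 genes, 77 had a mean of at least 50 CPM over the 2 libraries in every compared class, and all 77 reached 50 CPM in each library on its own in each of these classes. They were 74 canonical genes and the paralogs Rpl36al, Rpl22l1 and Rps27l. In macrophage-like cells 70 of 77 were at least 1.5-fold lower in the explosion library, against 20.3% of all genes at that level. In T-like cells it was 71 of 80, against 16.8%. In monocyte-like cells it was 70 of 77, against 19.6%. In each of these the ribosomal protein genes were lower far more often than the background share. Mesothelial-like cells had 70 of 77, against 23.8%, B-like cells 72 of 78, against 17.2%, and NK-like cells 70 of 79, against 16.2%. Secretory-like cells had 43 of 77, against 14.2%, and all cells together 56 of 77, against 17.6%.

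Few of the genes were at least 1.5-fold higher. The numbers were 1 in macrophage-like cells (background 45.4%), 2 in T-like cells (51.0%), 1 in monocyte-like cells (40.5%), 1 in mesothelial-like cells (45.4%), 4 in secretory-like cells (64.0%), 0 in B-like cells (46.7%) and 2 in NK-like cells (46.0%). The median log2 ratio of all genes at that level was itself above 0, from 0.36 in monocyte-like to 1.21 in secretory-like cells. The median of the ribosomal protein genes was -1.40 in macrophage-like, -1.43 in T-like and -0.65 in secretory-like cells. Relative to the median gene, the summed ribosomal protein UMIs had a log2 ratio between -2.03 in T-like and -1.74 in monocyte-like cells, and secretory-like cells, at -1.85, were within that range.

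**Figure D3:**
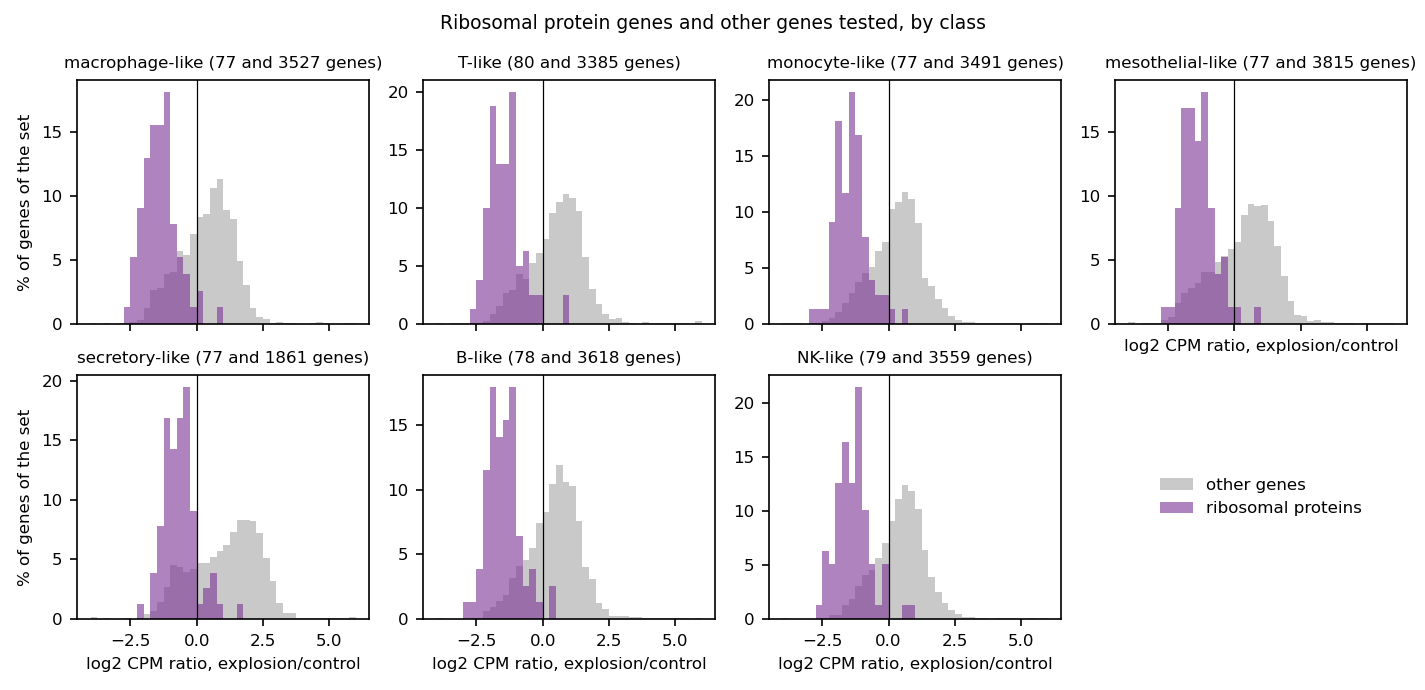
Distribution of the log2 CPM ratio (explosion over control) in 7 classes, as the percent of ribosomal protein genes (purple) and of other genes (grey) in bins of 0.25; ratios past the ends are put in the end bins. The purple distributions lie to the left of the grey ones in every class, with medians between -1.50 in B-like and -0.65 in secretory-like cells.

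Across the 7 classes, 69 of the 77 genes had a log2 ratio below 0 in every class, and 42 were at least 1.5-fold lower in every class. One gene, Rpl4, was above 0 in every class. The median over genes of the class medians was -1.40 for the 31 small subunit genes and -1.36 for the 43 large subunit genes. It was -1.38 for the 33 proteins that bacteria also have and -1.37 for the 41 found only in archaea and eukaryotes or in eukaryotes. The medians of the subunits, and those of the older and younger proteins with both subunits pooled, were thus close to each other. Within the proteins shared with bacteria the subunits were apart. Their small subunit genes (14 found by symbol) had a lower median than their 18 large subunit genes in each of the 7 classes. It was -1.74 and -1.37 in macrophage-like, -1.83 and -1.27 in T-like and -1.03 and -0.49 in secretory-like cells.

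Rps13, a small subunit protein shared with bacteria, had the lowest median log2 ratio over the classes among the 77 genes, with 1722 CPM in control and 265.7 CPM in explosion macrophage-like cells. That was 6.48-fold lower (6.005 to 7.012), and its log2 ratio ran from -2.86 in B-like to -2.05 in secretory-like cells. In every compared class it was at least 4-fold lower in the explosion library. Rps20, a protein of the small subunit's head, had 3977 and 771.9 CPM in T-like cells, 5.15-fold lower (4.74 to 5.61), with a median log2 ratio of -2.35. Rps15a had 2055 and 373.4 CPM in monocyte-like cells, 5.50-fold lower (5.053 to 6.004), with a median of -2.28. Rps14, known for its loss in the 5q- form of myelodysplasia, had a median of -2.13 and ranged from -2.45 in NK-like to -1.38 in secretory-like cells. All 4 were at least 1.5-fold lower in all 7 classes.

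Other small subunit genes were closer to the median of the group. Rps27a, which is made as a fusion with ubiquitin, had 2906 CPM in the control and 1733 CPM in the explosion library over all cells, 1.68-fold lower (1.65 to 1.71), and a class median of -1.29. Rpsa, also known as a laminin receptor, had 1782 and 1309 CPM over all cells, and its log2 ratio ran from -1.13 in B-like to -0.23 in secretory-like cells. Rpsa was lower by at least 1.5-fold in 6 of 7 classes, and Rps27a in all 7.

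A pair of small subunit genes stood near 0. Rps6, the target of the S6 kinases that serves as a marker of mTORC1 signalling when phosphorylated, had 712.5 and 797.8 CPM in macrophage-like cells, 1.12-fold higher in the explosion library (1.07 to 1.17). In T-like cells it had 2999.5 and 2275.7 CPM, 1.32-fold lower (1.25 to 1.39). In secretory-like cells it had 453.6 and 693.0 CPM, 1.53-fold higher (1.42 to 1.64). Rps6 thus lay on either side of 0, above it in 2 classes and below it in 5, and passed 1.5-fold in the secretory-like class alone. Its class median was -0.31, and 0.10 with at least 500 UMIs per cell. Rps28, a small protein of the subunit's head, had 763.2 and 640.7 CPM in macrophage-like cells and ranged from -0.42 in B-like to 0.35 in secretory-like cells, at least 1.5-fold apart in none.

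**Figure D4:**
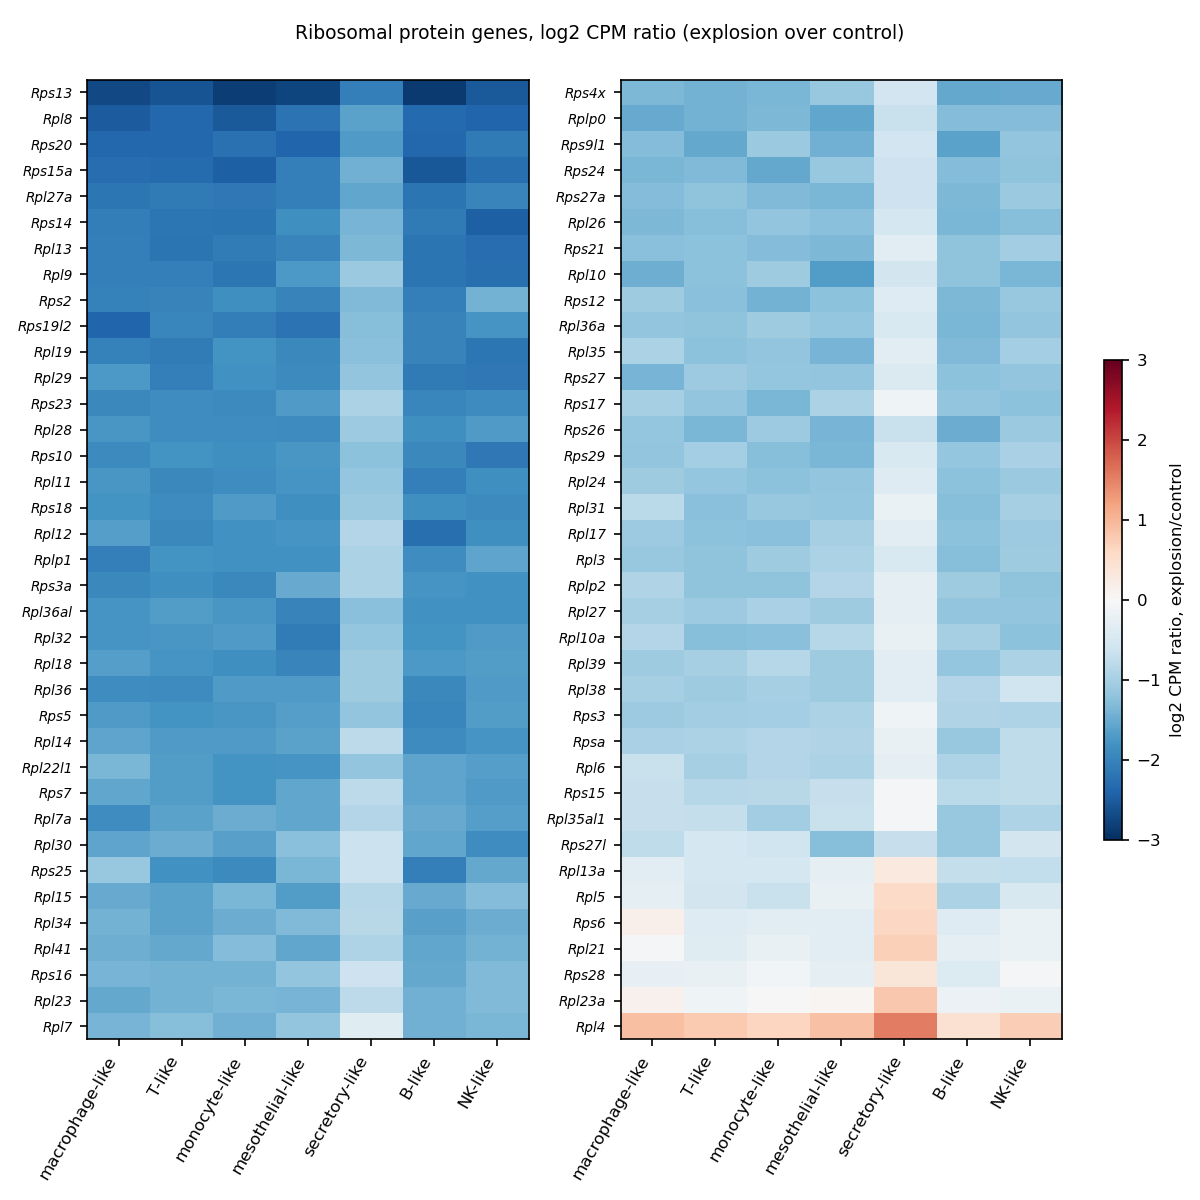
Log2 CPM ratio (explosion over control, colour scale from -3 to 3) of 74 of the 77 ribosomal protein genes at or above the level limit in all 7 classes, ordered by their median over classes from the lowest (Rps13, top left) to the highest (Rpl4, bottom right). Rows are blue in nearly all classes, the secretory-like column is the palest, and the row of Rpl4 is red throughout.

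In the large subunit, the lowest ratio was that of Rpl8, which lies next to the catalytic centre where peptide bonds form. It had 1580 CPM in control and 281.9 CPM in explosion macrophage-like cells, 5.60-fold lower (5.20 to 6.05), and a class median of -2.36. Rpl27a had a median of -2.13, Rpl13 of -2.09 and Rpl9 of -2.05, and these genes were at least 1.5-fold lower in all 7 classes. Rpl41, a very short peptide at the interface of the subunits, gave the most UMIs of the group in control cells, with 4207 CPM in the control and 1849 CPM in the explosion library, 2.28-fold lower (2.24 to 2.31). Rpl23 had 2695 and 1248 CPM, 2.16-fold lower (2.12 to 2.20). Counts from the 3′ end are not scaled by length, and capture can differ between transcripts, so levels of different genes are not compared further.

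The stalk proteins Rplp0, Rplp1 and Rplp2 form the arm of the large subunit that recruits elongation factors. Rplp0, its base, had 3657 CPM in the control and 1834 CPM in the explosion library over all cells, 1.99-fold lower (1.96 to 2.03). Rplp1 had 3299 and 1181 CPM, 2.79-fold lower (2.74 to 2.85). Rplp2 had 1241 and 892.5 CPM, 1.39-fold lower (1.36 to 1.42). Although Rplp1 and Rplp2 pair in the ribosome, their folds were apart: the class median was -1.82 for Rplp1 and -1.08 for Rplp2, and their intervals did not overlap in any of the 7 classes.

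Rpl5 and Rpl11 bind 5S ribosomal RNA together and, when free of the ribosome, bind Mdm2. Rpl11 had 2081 and 615.9 CPM in macrophage-like cells, 3.38-fold lower (3.21 to 3.56), and a class median of -1.84. Rpl5 had 613.8 and 503.8 CPM there, 1.22-fold lower (1.15 to 1.29), and a class median of -0.48. This pair was apart in the same direction in every class, with Rpl11 from -2.05 to -1.17 and Rpl5 from -0.94 to 0.57.

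Rpl4, which lines the tunnel through which the new protein leaves, was the exception to the group. It had 368.5 CPM in control and 687.6 CPM in explosion macrophage-like cells, 1.87-fold higher (1.78 to 1.96). In T-like cells it had 1222 and 2094 CPM, 1.71-fold higher (1.61 to 1.82). In secretory-like cells it had 277.9 and 809.6 CPM, 2.91-fold higher (2.72 to 3.11). B-like cells had the smallest fold, with 1041 and 1417 CPM, 1.36-fold higher (1.21 to 1.53). Rpl4 was at least 1.5-fold higher in 6 of 7 classes, and its class median was 0.78. The median log2 ratio of all genes at that level was 0.47 in macrophage-like, 1.21 in secretory-like and 0.50 in B-like cells, beside 0.90, 1.54 and 0.45 for Rpl4.

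Further large subunit genes had class medians closer to 0 than most of the group. Rpl23a, a protein at the tunnel exit, had 652.7 and 710.7 CPM in macrophage-like cells and a class median of 0.01, with a range from -0.19 in NK-like to 0.81 in secretory-like cells. Relative to the median gene its class median was -0.41. Rpl21 had 570.0 and 547.1 CPM in macrophage-like cells and a class median of -0.23. Rpl13a, known for silencing of inflammatory mRNAs after interferon gamma, had 1217 and 984.5 CPM there and a class median of -0.53. None of the 3 was at least 1.5-fold lower in all 7 classes: Rpl23a and Rpl21 were in 0 and Rpl13a in 2. Rpl23a and Rpl21 were at least 1.5-fold higher in secretory-like cells alone, where 64.0% of all genes at that level were.

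Each gene's share of the ribosomal protein pool removes the size of the pool from the comparison. The 6 genes with the most control UMIs made 19.1% of the pool in the control and 15.9% in the explosion library. Rpl4 went from 0.342% to 1.62% of the pool and Rps6 from 0.647% to 1.75%, while Rps13 went from 1.40% to 0.588%. These differences were present in every class: Rpl4 had between 0.307% and 0.442% in the control classes and between 1.47% and 1.76% in the explosion classes, with no overlap.

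**Figure D5:**
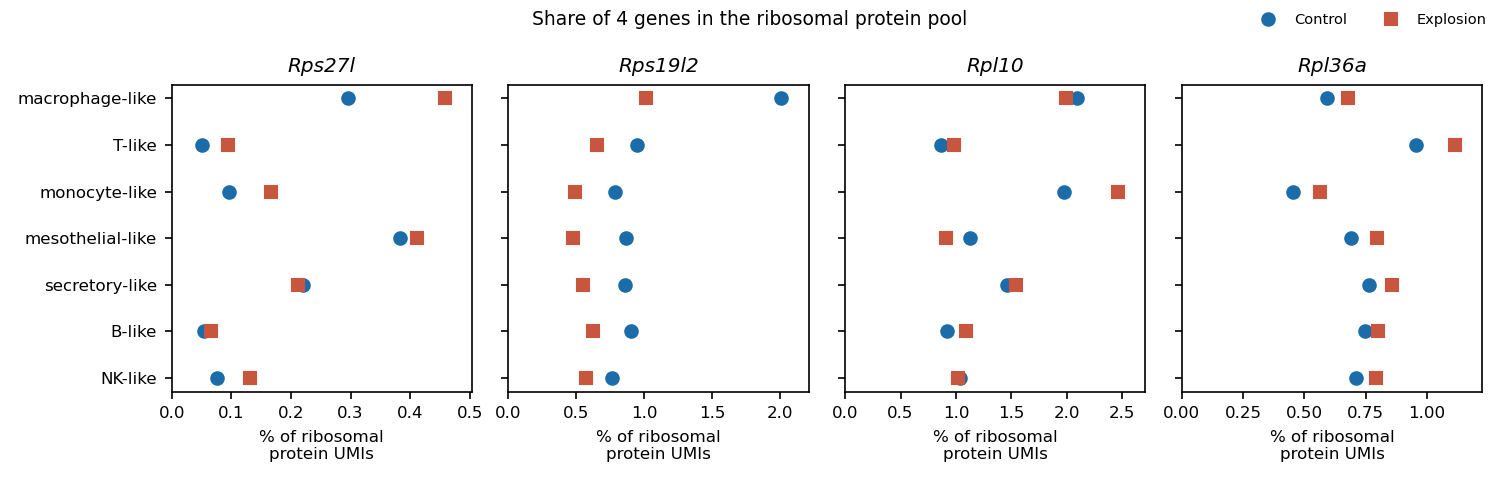
Percent of all ribosomal protein UMIs (horizontal axis, from 0) held by 4 of the 5 genes whose pool share varied most between the 7 control classes; blue circles are the control and red squares the explosion library. Rps27l is high in macrophage-like and mesothelial-like cells of both libraries, and Rps19l2 stands out in macrophage-like cells of both.

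The classes also differed from each other within the pool. Rps27l, a paralog of Rps27 known as a p53 target, had 0.383% of the pool in mesothelial-like and 0.0505% in T-like control cells, and 0.411% and 0.0942% in the explosion library. Rps19l2, which is Rps19, the first gene tied to Diamond-Blackfan anaemia, had 2.01% in macrophage-like and 0.765% in NK-like control cells, and 1.01% and 0.571% in the explosion library. Rpl10, which joins the large subunit late in its assembly, had 2.09% in macrophage-like and 0.863% in T-like control cells, and 1.99% and 0.985% in the explosion library. In these cases the class that was high in the control was again above the low one. Rpl36a had 0.957% in T-like and 0.452% in monocyte-like control cells, and 1.11% and 0.562% in the explosion library. For 76 of the 77 genes, the class with the highest pool share in the control was above the class with the lowest one in the explosion library too. Free RNA that enters droplets of a library can add to such shares; Scgb1a1, a secretory cell transcript, made 1.49% of control and 0.440% of explosion UMIs in macrophage-like cells, and its part was not tested.

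Paralogs and like genes made 1.20% of the pool in the control and 1.14% in the explosion library. Rpl36al, close kin of Rpl36a, had 567.4 CPM in the control and 224.6 CPM in the explosion library over all cells, 2.53-fold lower (2.41 to 2.65). Rpl22l1, the paralog of Rpl22, had 281.7 and 132.1 CPM, 2.13-fold lower (2.01 to 2.27). Rps27l had 268.5 and 140.0 CPM, 1.92-fold lower (1.81 to 2.03), and was at least 1.5-fold lower in 5 of 7 classes. Its log2 ratio was -0.94 over all cells, and its class median was -0.68. These abundant paralogs were lower like the canonical genes. Rpl7l1, a relative of Rpl7, was the contrast: it had 28.2 and 60.8 CPM over all cells, 2.16-fold higher (1.96 to 2.37). Over all cells it was under the level limit of 50 CPM. It reached the limit in 3 classes and was at least 1.5-fold higher in T-like and NK-like cells. Of all genes at that level, 51.0% were that much higher in T-like and 46.0% in NK-like cells.

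The other 25 genes that missed the limit in at least 1 class gave little RNA. The canonical genes among them were Rpl22, with 48 control and 7 explosion UMIs, and Rpl37, with 1 and 0. Paralogs known from other tissues were near absent: Rpl3l, of heart and skeletal muscle, had 26 and 8 UMIs, Rpl39l, of testis, 18 and 4, and Rpl10l, also of testis, 412 and 18. Rps15al1 had 0 in both. Rps4y2 had 2127 and 76 UMIs, and Rps19bp1 had 1718 and 94. Many of these genes have near-identical copies in the genome, and no label or file header says how reads that fit several copies were counted, so values of single paralogs and of genes with such copies are uncertain.

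Ribosomal proteins outside the name rule were lower as well. Fau had 2444 CPM in the control and 916.7 CPM in the explosion library, 2.67-fold lower (2.61 to 2.73). It was at least 1.5-fold lower in 7 of 7 classes, and Rack1, a scaffold on the small subunit, in 6 of 7. Of the 77 mitochondrial ribosomal protein genes 27 reached the level limit over all cells, and 23 of them were at least 1.5-fold lower, with a median log2 ratio of -1.11 and 0 higher, beside a background of 17.6% lower over all genes at that level. The remaining mitochondrial ribosomal protein genes were under the limit and were not compared. Most of the 27 compared were under 50 CPM in the explosion library and passed the limit only through the control. Examples were Mrpl23, with 133.7 and 43.9 CPM, Mrps24, with 129.9 and 35.1 CPM, and Mrpl58, with 76.6 and 23.8 CPM. The direction of such genes, and so the count of 23 and the median, was in part set by the limit.

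Other genes of translation were in part lower and in part higher. Among 12 elongation factor and other TOP genes 4 were at least 1.5-fold lower and 2 higher over all cells. Naca, of the nascent chain complex, had 1206 and 600.2 CPM, and Pabpc1, the poly(A) binding protein, had 207.6 and 569.4 CPM. Among 27 initiation factors 3 were lower and 10 higher: Eif1 had 857.2 and 306.2 CPM and Eif4g1, the scaffold of the cap complex, 119.8 and 375.0 CPM. Among 12 ribosome biogenesis factors 2 were lower and 7 higher, with Nhp2 at 90.6 and 37.7 CPM and Mdn1 at 11.0 and 91.1 CPM. Of 3 RNA polymerase I genes 2 were higher, with Ubtf at 65.3 and 185.5 CPM. Of 8 regulators of ribosomal protein mRNA 6 were higher, among them Larp1, with 77.9 and 220.4 CPM, and Rps6kb1, an S6 kinase, with 24.98 and 94.29 CPM, while the translation repressor Eif4ebp1 was lower, with 117.1 and 48.5 CPM. The level limit was a mean of 50 CPM over both libraries, so some genes passed it only through the library where they were higher. Mdn1, Nolc1, Ddx21, Nop58, Fbl, Rps6kb1, Larp4, Tial1, Max and Eif1ax were under 50 CPM in the control. Nhp2, Ebna1bp2, Eif4ebp1, Eif6 and Eif2s1 were under 50 CPM in the explosion library. The 2 lower biogenesis factors, Nhp2 and Ebna1bp2, were thus among them. The direction of such genes was in part set by the limit. The background over all cells, under the same limit, was 17.6% lower and 56.9% higher. By class, the 12 elongation factor and other TOP genes had between 1 lower, in secretory-like cells, and 8 lower, in T-like and monocyte-like cells. Their class medians ran from -0.94 in B-like to 0.01 in secretory-like cells. The initiation factors had between 2 and 7 lower and between 5 and 10 higher by class. They were 7 lower and 9 higher in macrophage-like cells, and 7 lower and 6 higher in mesothelial-like cells. Their class medians ran from -0.31 in mesothelial-like to 0.57 in secretory-like cells. Those of the ribosome biogenesis factors ran from -0.21 to 1.37 in the same classes.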

How the data were processed

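Single-cell RNA libraries of dissociated rat lung, 1 control and 1 explosion, were read as deposited. Values were raw UMI counts for each gene in each barcode, which cellranger 7.1.0 wrote per the file headers. Tools named in the submitters' processing notes were Cell Ranger 6.1.1 and bcl2fastq 2.20, and builds named there were rn6 and mRatBN7.2; which gene annotation was counted is not stated by any label or header. Per the deposited files, the other columns hold gene symbols and barcodes. The control matrix had 21117 barcodes and 139486248 UMIs, the explosion matrix 12642 and 9017416.

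Barcodes under 200 genes or above 25% mitochondrial UMIs were left out (21 and 12 control and 192 and 8 explosion barcodes). Mitochondrial UMIs came only from the 2 ribosomal RNAs. Doublets called per library with Scrublet (scanpy 1.11.5) were removed, 8.79% of control and 4.80% of explosion cells. Clustering used the first 30 components of 2000 variable genes (ribosomal protein genes left out), a graph of 15 neighbours and the Leiden method (resolution 1, from python-igraph 0.11.9), and the libraries were not integrated. Of 31 clusters 28 were named, each from at least 3 markers detected 2-fold above other classes in at least 5% of cells, out of 217 markers found.

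UMIs were summed per class and library. Ratios carry exact conditional 95% intervals of 2 Poisson counts, and shares exact Clopper-Pearson intervals; PCR and capture error are not covered. Logs used 0.5 added counts. Genes with a mean of at least 50 CPM over both libraries were compared. The ribosomal protein genes named were those with the most control CPM (6), the lowest and highest median log2 ratio over classes (8 each), the widest control pool range (5), and a list of stalk, 5S-binding, signalling and paralogous genes; of other lists the highest and lowest were named. Members and lists were chosen with earlier results of these data known. The interval and ratio code was tested on simulated data. Alternatives changed the cell, gene and doublet filters, the total, the fold, the clustering and the set of genes. Older symbols came from the RefSeq GRCr8 table, for names only. The values of a few named genes are not reported here, although these genes stayed in the counts and sums.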

Additional observations from a re-analysis of the deposited data

Results flagged for a closer look

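Rpl5 and Rpl13a were higher in the explosion library in secretory-like cells and lower in the other 6 compared classes. The secretory-like log2 ratio was 0.572 for Rpl5 and 0.290 for Rpl13a, and the counting intervals of all 7 classes excluded equal levels. Rpl5 had 568.3 and 844.5 CPM in secretory-like cells and Rpl13a 674.6 and 824.1 CPM. The difference between classes was not tested, since each group had 1 library. Scgb1a1 took 57.6% of control and 38.5% of explosion UMIs in this class, and the median log2 ratio of all its genes was 1.21; the part of these in the opposite direction was not tested.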

How the results depend on the processing

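No paired analysis was possible because the 2 groups share only 1 replicate number and hold 1 library each; for the same reason no replicate could be left out. Over the other settings, all 69 values of the ribosomal protein share stayed below 0 on the log2 scale. Of 86 counts of genes at least 1.5-fold lower, 82 stayed within 1.5 times the value reported. The order of pool shares held for 76 of 77 genes as reported and for 71 of 77 with at least 500 UMIs per cell. With canonical genes only it held for 72 of 74. Of 192 class medians of named genes under other settings, 140 kept their sign and stayed within 0.10 of the value reported. With at least 500 UMIs per cell, Rps13 went from -2.70 to -2.47 and Rplp1 from -1.82 to -1.52. The class median of Rps6 went from -0.31 to 0.10 in that setting, and that of Rpl23a from 0.01 to -0.41 relative to the median gene. For Rps6 and Rpl23a both values reported were under 1.5-fold.

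The share differed from the value reported by more than its counting interval as follows, in log2 ratios of explosion over control. With at least 500 UMIs per cell it was -0.96 over all cells, -1.37 in T-like, -1.01 in monocyte-like, -1.21 in B-like and -1.32 in NK-like cells. With 500 to 1500 UMIs it was -1.07 in macrophage-like, -1.21 in T-like, -0.85 in monocyte-like, -1.24 in mesothelial-like, -0.49 in secretory-like, -1.19 in B-like and -1.17 in NK-like cells. With at most 5% mitochondrial UMIs it was -0.94 over all cells, -1.38 in macrophage-like, -1.46 in T-like, -1.31 in monocyte-like, -1.35 in mesothelial-like, -0.62 in secretory-like, -1.44 in B-like and -1.30 in NK-like cells. With called doublets kept it was -1.37 in monocyte-like, -1.40 in mesothelial-like, -0.68 in secretory-like and -1.32 in NK-like cells. At Leiden resolution 2 it was -1.42 in macrophage-like and -1.34 in mesothelial-like cells. No secretory-like value was had there, since under 200 explosion cells were left with that name. A cluster of 637 explosion cells, with secretory as its best class, was left unnamed at that resolution. Its 10 highest genes held 0 secretory markers and 2 of another class.

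Relative to the median gene the share was -1.68 over all cells, -1.86 in macrophage-like, -2.03 in T-like, -1.74 in monocyte-like, -1.85 in mesothelial-like, -1.85 in secretory-like, -1.97 in B-like and -1.85 in NK-like cells. With a total without Scgb1a1, mitochondrial ribosomal RNAs and Rn45s it was -1.15 over all cells, -1.37 in macrophage-like, -1.39 in T-like, -1.37 in monocyte-like and -1.12 in secretory-like cells. The count of lower genes in secretory-like cells was 74 relative to the median gene and 67 with that total, against 43. At 2-fold in place of 1.5-fold it was 23 in secretory-like and 34 over all cells, against 43 and 56. The cause of these shifts was not tested, except where the setting itself sets the shift (another total, a larger fold). Leaving out barcodes found in both libraries, chosen after seeing the data, moved no value by more than its counting interval. The explosion library had fewer UMIs per cell, which limits its rarer genes most.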
